A study of Mus musculus with 12 samples.

Results

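The 10 genes described here carry out or control bile acid synthesis and transport in the hepatocyte, and they were taken by name from the 24187 genes of the count table. They comprise the synthesis enzymes Cyp7a1, Cyp8b1, Cyp27a1 and Cyp7b1, the transporters Slc10a1, Slco1b2, Slco1a1 and Abcb11, and the nuclear receptors Nr1h4 and Nr0b2. RNA was sequenced from livers of 12 mice after depletion of ribosomal RNA. The labels give no strain, and the study's methods name both C57BL/6 J and C57BL6/JOlaHsd mice, aged 10 to 12 weeks. The control group held 3 mice with neither injury nor treatment, and the other mice received acetaminophen (APAP, paracetamol) at a labelled dose of 350 mg/kg. Of the injured mice, 5 were given phosphate-buffered saline (PBS) as vehicle and 4 were given hAAMs, human alternatively activated macrophages. The study's methods derive hAAMs from CD14+ blood monocytes of human donors, matured with CSF1, polarised with IL-4 and IL-13 and cryopreserved, and injected them into a vein 16 h after APAP. The methods also describe mice of both sexes, a model with a higher dose of APAP, and a fast of 12 h that ended 20 min after the APAP or saline injection. Mice were killed on the second day or 28 days after APAP according to the methods, and 16 h after the cells in the model with the higher dose. For the sequenced livers themselves, sex and hour of collection were not given in the sources used here, nor whether the untreated mice had fasted or received saline. The human cells entered an immunocompetent mouse, and reads were aligned to the mouse genome alone.

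APAP overdose kills hepatocytes around the central vein, where cytochrome P450 enzymes turn the drug into a reactive metabolite. Bile acids are made from cholesterol by hepatocytes. The classical route begins with Cyp7a1, its rate-limiting enzyme, and Cyp8b1 then decides how much cholic acid is made. The alternative route begins with Cyp27a1 in mitochondria and continues with Cyp7b1. Bile acids returning from the gut are taken up at the blood side by Slc10a1 (NTCP) and by organic anion transporters such as Slco1b2 and Slco1a1, and Abcb11 (BSEP, the bile salt export pump) moves them into bile. Nr1h4 (FXR) is the receptor that senses bile acids, and it induces Abcb11 and Nr0b2 (SHP), a co-repressor that acts on Cyp7a1 and Cyp8b1 through Nr5a2 (LRH-1) and Hnf4a.

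The sequences just upstream of the transcription start are shown for members whose promoters held letters of a binding motif for these regulators. RefSeq promoter windows (build GRCm38.p6) matched 8 of the 10 members with 9 windows, all but Cyp7a1 and Cyp7b1, and the 250 bases before each start were scanned on both strands. Capitals mark the motif letters. The first pair of lines holds an inverted repeat read by FXR (GGNCA, any base, then TGANC), which began 62 bases before the start of Abcb11 and 87 bases before that of Slco1b2.
Abcb11, chr2:69342617-69342736, minus strand: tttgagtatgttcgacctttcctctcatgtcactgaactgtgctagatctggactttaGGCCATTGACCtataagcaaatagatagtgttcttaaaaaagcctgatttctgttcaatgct
Slco1b2, chr6:141629398-141629517, plus strand: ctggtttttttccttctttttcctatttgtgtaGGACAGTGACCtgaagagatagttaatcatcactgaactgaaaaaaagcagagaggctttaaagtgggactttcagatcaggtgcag
The repeat was found in 0.935% of all 32851 promoter windows of that length.

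In Cyp8b1, letters of an HNF4A motif, CAAAGNNCA, and of an LRH-1 motif, CAAGGNCA, overlapped and began 67 and 60 bases before the start. In Nr0b2, LRH-1 letters 201 bases before the start overlapped an E-box, CACGTG, the motif of the clock factors. Cyp27a1 held TTATGAAA 60 bases before its start, which matched the loose D-box pattern searched, TTATGNAA, with A at the open base. The D-box is a motif shared by the clock-controlled factors Dbp and Nfil3, and whether this form of it serves them was not tested.
Cyp8b1, chr9:121916306-121916425, minus strand: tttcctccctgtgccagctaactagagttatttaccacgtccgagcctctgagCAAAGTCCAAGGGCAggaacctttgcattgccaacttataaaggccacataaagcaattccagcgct
Nr0b2, chr4:133553126-133553375, plus strand: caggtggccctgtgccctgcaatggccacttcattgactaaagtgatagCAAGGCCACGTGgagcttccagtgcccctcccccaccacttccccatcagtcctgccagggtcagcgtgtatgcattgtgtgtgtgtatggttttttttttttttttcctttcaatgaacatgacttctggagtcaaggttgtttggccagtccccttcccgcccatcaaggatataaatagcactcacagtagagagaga
Cyp27a1, chr1:74713415-74713534, plus strand: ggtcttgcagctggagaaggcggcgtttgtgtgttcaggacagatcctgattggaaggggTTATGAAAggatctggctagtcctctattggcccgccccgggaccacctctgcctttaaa
A further HNF4A match lay 242 bases before the start of Cyp8b1. Among all windows, LRH-1 letters were found in 5.53%, HNF4A letters in 5.49%, the loose D-box pattern in 3.07% and the E-box in 6.02%. An HNF1 motif (GTTAAT, any base, then ATT) was present in 0.371% of windows and in none of the 9 windows of the members. These matches are letters in a window and were not tested for binding.

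Total counts ranged from 47391650 to 74056505 per liver. Values are given as CPM, counts scaled to 1e+06 per library, after TMM scaling, which corrects for RNA composition, and all 10 members passed the filter on low counts. Hepatocyte genes were abundant in every liver, the summed CPM of 8 of them lying between 83844 and 122451. The libraries labelled vehicle 3 and hAAM 4 stood out. Over 13864 genes their counts differed by 1.20 times the counting noise, against 2.45 to 5.24 times in the other 35 pairs of injured livers. Whether both came from 1 liver, or whether either carries a wrong label, was not tested. Both were kept under their labels, on which the number of livers and every difference between hAAM and vehicle livers rest, and the calls and directions that change without them are given beside the result.

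In the 3 control livers, the members spanned a wide range of levels per kilobase of exon. Cyp27a1 was at 176 ± 14.3 CPM per kb (SD, n = 3), Slco1b2 at 166 ± 46.3, Slc10a1 at 145 ± 40.4 and Abcb11 at 139 ± 14.4 CPM per kb. Cyp7b1 (101 ± 45.9 CPM per kb) and Cyp8b1 (101 ± 34.6 CPM per kb) followed, with Slco1a1 at 70.1 ± 21.8 and Nr1h4 at 55.6 ± 4.72 CPM per kb. Cyp7a1 was at 21.3 ± 19.4 CPM per kb and Nr0b2 at 17.9 ± 5.33 CPM per kb. The spreads (mean ± SD) of neighbouring genes in this order overlapped, apart from Nr1h4 and Cyp7a1, whose ranges did not meet.

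Compared with control livers, 7 of the 10 genes were lower in APAP-injured livers given vehicle and none was higher, by edgeR's quasi-likelihood test at a false discovery rate (FDR) under 0.05. Of all 22581 genes tested, 14.8% were called lower and 15.0% higher. The members that fell were Cyp8b1, Cyp27a1, Cyp7b1, Slco1b2, Slco1a1, Abcb11 and Nr1h4. In each of these 7 the vehicle and control livers did not overlap, which held in the lower direction for 17.3% of all genes. The median log2 fold change was −1.49 over the members and 0.01 over all genes tested. In whole liver, fewer hepatocytes and less RNA per hepatocyte cannot be told apart.

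**Figure D1:**
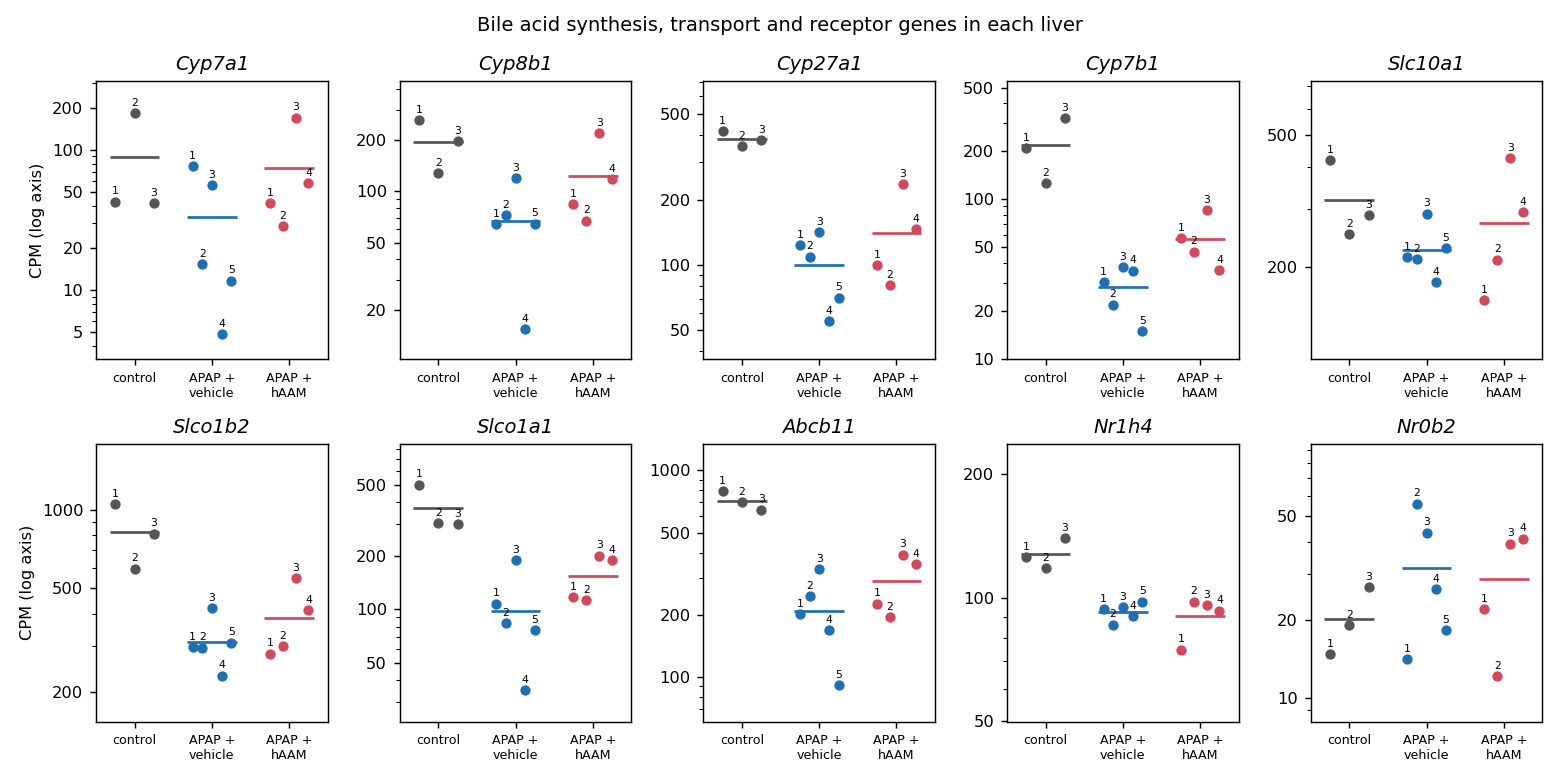
CPM after TMM scaling (log axis) of the 10 genes in each of 12 livers, with replicate numbers beside the points and a bar at the arithmetic mean of the group. The vehicle livers lie below the control livers without overlap in 7 genes, while Cyp7a1 in vehicle livers extends from 4.83 to 76.8 CPM.

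Among the enzymes, Cyp7b1, the oxysterol 7α-hydroxylase of the alternative route (ENSMUSG00000039519, GRCm38 chr3:18071950-18243338, minus strand), showed the largest fall of the 10 members. It stood at 209, 125 and 323 CPM in the control livers, at 30.3, 21.8, 37.5, 35.6 and 14.9 CPM in vehicle livers, and at 57.1, 46.9, 85.5 and 36.0 CPM in hAAM livers. Every injured liver was below every control liver. The log2 fold change was −2.97 (FDR 0.000259 by edgeR, SE 0.358) in vehicle against control, a mean 87.2% lower. With hAAMs it was −1.96 against control (FDR 0.00533 by edgeR, SE 0.377).

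Cyp27a1, the sterol 27-hydroxylase that opens the same route (ENSMUSG00000026170, chr1:74713574-74737892, plus strand), was the most even of the enzymes in uninjured liver. Control livers held 415, 354 and 377 CPM, vehicle livers 124, 109, 142, 55.3 and 70.7 CPM, and hAAM livers 100.2, 81.0, 237 and 146 CPM. Injured and control livers did not overlap, and hAAM 3 was the highest of the injured livers. Cyp27a1 fell by 1.93 on the log2 scale in vehicle livers (FDR 0.00200 by edgeR, SE 0.341) and by 1.44 in hAAM livers (FDR 0.0170 by edgeR, SE 0.362). The call in hAAM livers was lost without control 1 (edgeR FDR 0.0503) or without hAAM 1 (edgeR FDR 0.0521).

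Cyp8b1, the sterol 12α-hydroxylase (ENSMUSG00000050445, chr9:121914356-121916305, minus strand), was at 262, 128 and 199 CPM in control livers. In vehicle livers it was at 64.2, 72.9, 119, 15.5 and 64.6 CPM, and vehicle 4 stood far below the others. The hAAM livers, at 84.3, 67.2, 219 and 119 CPM, overlapped both other groups. Cyp8b1 fell by 1.54 on the log2 scale in vehicle livers (FDR 0.0370 by edgeR, SE 0.505), whereas the difference with hAAMs was −0.68 (FDR 0.393 by edgeR, SE 0.536), −0.41 without control 1 and −1.12 without hAAM 3. The vehicle call was near the threshold and was lost without control 1, control 3, vehicle 1, vehicle 2 or vehicle 5, where the edgeR FDR was 0.0612 to 0.131.

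Cyp7a1, the rate-limiting enzyme of the classical route (ENSMUSG00000028240, chr4:6265612-6275633, minus strand), did not pass the test in any comparison. Its levels were 42.7, 183 and 41.9 CPM in control livers, 76.8, 15.3, 56.2, 4.83 and 11.7 CPM in vehicle livers, and 41.7, 28.6, 170 and 57.8 CPM in hAAM livers. Control 2 and hAAM 3 were the high livers, vehicle 4 the lowest, and all 3 groups overlapped. The log2 difference from control was −1.44 with vehicle (FDR 0.218 by edgeR, SE 0.841, 95% confidence interval −3.27 to 0.39) and −0.26 with hAAMs (FDR 0.866 by edgeR, SE 0.894). Without control 2 these values were −0.36 and 0.82. The value with hAAMs was −1.06 without hAAM 3, −0.59 without control 1 or control 3, −0.054 without hAAM 1, 0.017 without hAAM 2, −0.15 without hAAM 4 and −0.14 without both near-identical libraries.

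Cyp7a1 was also the member that varied most between livers of one group. The SD of its log2 CPM was 1.22 in control, 1.65 in vehicle and 1.11 in hAAM livers, while the median gene had an SD of 0.214, 0.223 and 0.256. In vehicle livers 99.83% of genes varied less than Cyp7a1, and its highest liver was 15.9 times its lowest. At the other end, the SD of Nr1h4 in vehicle livers was 0.0721, with 8.764% of genes varying less.

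Of the transporters, Abcb11, the canalicular export pump (ENSMUSG00000027048, chr2:69238282-69342616, minus strand), stood at 793, 700 and 646 CPM in control livers. It was at 201, 247, 333, 168 and 91.0 CPM with vehicle and at 226, 194, 391 and 351 CPM with hAAMs. No injured liver reached the control range. Abcb11 fell by 1.78 on the log2 scale with vehicle (FDR 0.00267 by edgeR, SE 0.333) and by 1.29 with hAAMs (FDR 0.0242 by edgeR, SE 0.354). The second call was lost when any control liver, hAAM 1 or hAAM 2 was left out, with edgeR FDR values of 0.0521 to 0.0692. Genes annotated on the opposite strand overlap 3.01% of the exon bases of Abcb11, and none overlaps the exons of the other members.

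Slco1b2 (OATP1B2, ENSMUSG00000030236, chr6:141629518-141686646, plus strand), a sodium-independent carrier of bile acids and drugs, was at 1051, 594 and 810 CPM in control livers. It was at 298, 297, 421, 232 and 310 CPM with vehicle and at 281, 301, 546 and 414 CPM with hAAMs. Here too the injured livers remained below the control range, hAAM 3 coming closest to it. Slco1b2 fell by 1.39 on the log2 scale with vehicle (FDR 0.00196 by edgeR, SE 0.245) and by 1.09 with hAAMs (FDR 0.0137 by edgeR, SE 0.260), the latter reaching an edgeR FDR of 0.0603 without control 1.

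Slco1a1 (OATP1A1, ENSMUSG00000041698, chr6:141907282-141946962, minus strand), a related carrier with higher expression in male mouse liver, was at 502, 306 and 301 CPM in control livers. Vehicle livers held 108, 83.6, 189, 34.9 and 76.1 CPM and hAAM livers 117, 113, 200.2 and 189 CPM, all below the control livers. It fell by 1.91 on the log2 scale with vehicle (FDR 0.00520 by edgeR, SE 0.408). With hAAMs the difference was −1.26 and missed the threshold (FDR 0.0583 by edgeR, SE 0.433), although the groups did not overlap. That comparison passed with DESeq2 (FDR 0.0202), without vehicle 3 or vehicle 4 in the shared estimate of spread (edgeR FDR 0.0265 and 0.0245), and without both near-identical libraries (edgeR FDR 0.0339). Paralogues of the Slco1a family are similar in sequence, and reads that align to more than 1 of them could be split or lost in counting.

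Slc10a1 (NTCP, ENSMUSG00000021135, chr12:80953183-80968705, minus strand), the sodium-dependent uptake carrier, did not pass the test in any comparison. It was at 420, 252 and 287 CPM in control livers, at 215, 212, 290, 181 and 229 CPM with vehicle and at 159, 211, 427 and 293 CPM with hAAMs. The groups overlapped, and hAAM 3 was above all control livers. The log2 difference from control was −0.50 with vehicle (FDR 0.186 by edgeR, SE 0.275, 95% confidence interval −1.10 to 0.09) and −0.23 with hAAMs (FDR 0.609 by edgeR, SE 0.291). Without control 1 these values were −0.26 and 0.019, and without hAAM 3 the second was −0.53.

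The receptor Nr1h4 (ENSMUSG00000047638, chr10:89454234-89533585, minus strand) showed the smallest called change. It was at 126, 118 and 140 CPM in control livers, at 93.9, 86.0, 94.8, 90.2 and 97.9 CPM with vehicle and at 74.8, 98.0, 96.0 and 93.1 CPM with hAAMs. The injured livers formed a narrow band beneath the control livers. Nr1h4 fell by 0.47 on the log2 scale with vehicle (FDR 0.00398 by edgeR, SE 0.0945) and by 0.50 with hAAMs (FDR 0.00608 by edgeR, SE 0.0995). Scaling by library size alone raised the median of all genes from 0.01 to 0.36 with vehicle and from 0.02 to 0.32 with hAAMs. Nr1h4 then differed by −0.12 and −0.20, without passing the test.

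Nr0b2 (ENSMUSG00000037583, chr4:133553376-133556536, plus strand) was the member with a positive difference from control, and it did not pass the test. It was at 14.8, 19.1 and 26.7 CPM in control livers, at 14.1, 56.0, 43.3, 26.2 and 18.3 CPM with vehicle and at 22.1, 12.2, 39.3 and 41.1 CPM with hAAMs. Vehicle 2, vehicle 3, hAAM 3 and hAAM 4 were above the control range, while vehicle 1 and hAAM 2 were below it. The log2 difference was 0.64 with vehicle (FDR 0.331 by edgeR, SE 0.476) and 0.50 with hAAMs (FDR 0.502 by edgeR, SE 0.493). The first was 0.33 without vehicle 2, and the second was 0.28 without hAAM 4, 0.31 without hAAM 3, 0.32 without control 1 and 0.76 without control 3 or hAAM 2.

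**Figure D2:**
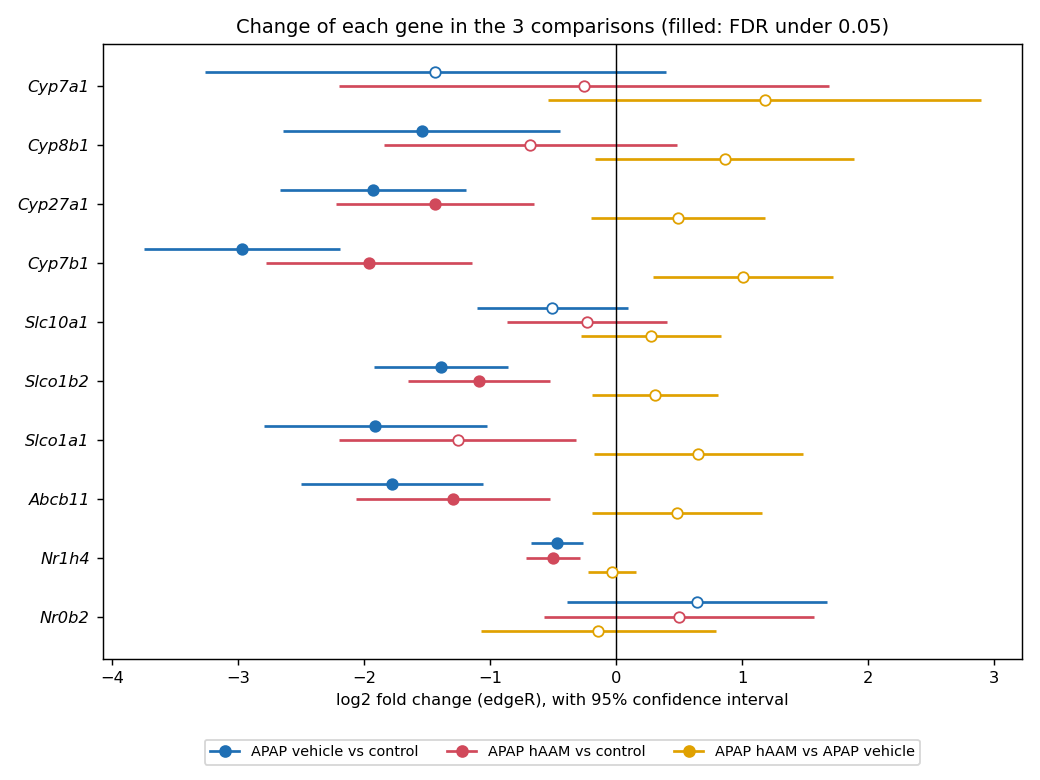
Log2 fold change of the 10 genes from edgeR with 95% confidence intervals, in vehicle against control, hAAM against control and hAAM against vehicle. Filled points passed an FDR of 0.05, which 7 genes did with vehicle, 5 with hAAMs and none between the injured groups.

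Against the same control livers, hAAM livers showed 5 of the 10 members lower and none higher, these being Cyp7b1, Cyp27a1, Abcb11, Slco1b2 and Nr1h4. Of all genes tested, 9.96% were called lower and 10.7% higher in this comparison. In 6 members, the 5 and Slco1a1, the groups did not overlap, against 14.2% of all genes in the lower direction. The median log2 fold change was −0.88 over the members and 0.02 over all genes. The count of 5 fell to 2 without control 1 and to 3 without hAAM 1, and was 6 without both near-identical libraries, while the genes called in either direction among all tested went from 4666 to 3027, 2799 and 4412. Both comparisons used the same 3 control livers.

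The direct comparison of injured livers asked whether hAAMs changed these genes. None of the 10 members passed the edgeR test between hAAM and vehicle livers, the FDR values being 0.966 to 0.994, nor did any of the 22581 genes (0%). At an unadjusted p under 0.05, edgeR gave 1 member and 5.02% of all genes, and DESeq2 called no member and 1 gene (0.00443%). The injured groups overlapped in all 10 members, where 1.40% of all genes did not overlap in either direction. The member past the unadjusted threshold was Cyp7b1, 2.01-fold higher with hAAMs (log2 1.01, SE 0.330, edgeR p 0.00979, FDR 0.966, 95% confidence interval 0.29 to 1.72). Its hAAM livers, from 36.0 to 85.5 CPM, overlapped the vehicle livers only through hAAM 4 and vehicle 3, the near-identical libraries. Without both, the log2 difference of Cyp7b1 was 1.30 (FDR 0.565 by edgeR, SE 0.357).

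In the same comparison, all 4 enzymes and all 4 transporters had positive log2 differences, and the median of the 10 members was 0.49 against 0.00 over all genes. Cyp7a1 differed by 1.18 with a 95% confidence interval of −0.54 to 2.89, which spans a fall and a large rise. The interval for Cyp8b1 was −0.16 to 1.89 around 0.86, and that for Slco1a1 was −0.17 to 1.48 around 0.65. For Nr1h4 it was narrow, −0.22 to 0.16 around −0.03. The intervals around Cyp27a1 (0.49), Abcb11 (0.48), Slco1b2 (0.31), Slc10a1 (0.27) and Nr0b2 (−0.14) likewise included 0. The liver hAAM 3 carried much of these values. Without it, the log2 difference was 0.37 for Cyp7a1, 0.42 for Cyp8b1, 0.12 for Cyp27a1 and 0.74 for Cyp7b1, and 0.31 for Abcb11, 0.51 for Slco1a1, 0.092 for Slco1b2 and −0.028 for Slc10a1. Abcb11 was also lower, at 0.29, without vehicle 5, while Slco1a1 reached 1.03 without vehicle 3 and Slc10a1 0.46 without hAAM 1.

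The same livers stood at the ends of the range in most of the 8 enzymes and transporters. The liver of hAAM 3 was the highest of the 9 injured livers in all 8, with a median of −0.617 relative to the control mean on the log2 scale. Vehicle 4 was the lowest in 5 of 8 with a median of −2.65, vehicle 5 in 2 with a median of −2.33, and hAAM 1 in 1 with a median of −1.56. The medians of the near-identical libraries were −0.923 for vehicle 3 and −0.935 for hAAM 4. The genes Cyp7a1, Cyp8b1 and Slc10a1, exceeded the control mean in hAAM 3. In Nr1h4 and Nr0b2, hAAM 3 was not the highest of the injured livers.

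**Figure D3:**
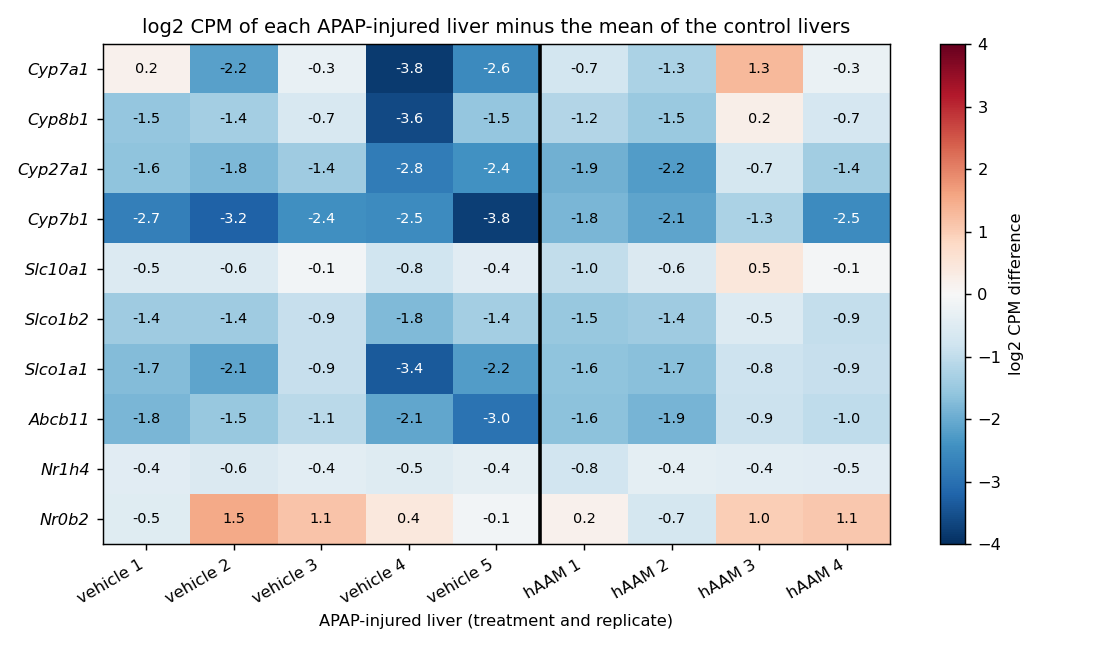
Heat map of log2 CPM of each gene in each of the 9 injured livers minus the mean of the 3 control livers, blue for lower and red for higher. The column of hAAM 3 holds the highest value in each of the 8 enzymes and transporters (median −0.617), and that of vehicle 4 the lowest in 5 of them (median −2.65).

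Of 10 pericentral genes, 8 were also highest among injured livers in hAAM 3, the exceptions being Cyp1a2 (hAAM 1) and Lect2 (vehicle 5). Slc1a2, a glutamate transporter of the hepatocytes next to the central vein, was at 173 to 252 CPM in control livers, 42.9 CPM in hAAM 3 and 0.28 to 2.37 CPM in the other injured livers. Cyp2e1, the main APAP-activating enzyme, was at 2464 CPM in hAAM 3, 1293 in hAAM 4, 1300 in vehicle 3 and 239 in vehicle 4. The summed CPM of 10 pericentral genes was 5273 to 8169 in control, 485 to 1991 in vehicle and 675 to 3587 in hAAM livers, and 9 of the 10 were called lower with vehicle, where 14.8% of all genes were. With hAAMs 6 of the 10 were lower (9.96% of all genes). Of 10 periportal genes, 1 was called higher and 1 lower with vehicle and 2 higher with hAAMs, close to the shares of all genes. Their summed CPM was 5992 to 10999.5 in vehicle and 6498 to 15333 in hAAM livers, and hAAM 3 held the highest value of all livers. The summed CPM of the 8 hepatocyte genes was also highest in hAAM 3, at 122451. The high values of hAAM 3 were thus not particular to the pericentral genes. The part of zonal hepatocyte loss in the fall of the members was not tested.

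Other marker lists moved in the same livers. Clock genes differed between vehicle and control livers, with 7 of 14 called higher and 5 lower, against 15.0% and 14.8% of all genes. With hAAMs 4 of 14 were higher and 2 lower, against 10.7% and 9.96%. Nfil3, a repressor acting on the D-box, was at 71.0 to 106 CPM in control livers and at 13.1 to 37.5 CPM in injured livers. Dbp, an activator acting on it, was at 0.44 to 2.13 CPM in control, 5.48 to 11.8 CPM in vehicle and 1.29 to 8.36 CPM in hAAM livers. Cyp7a1 is known to follow the time of day and feeding, and the part of collection time was not tested. Among 6 male-biased liver genes, 5 were called lower with vehicle and 3 with hAAMs (14.8% and 9.96% of all genes), the summed CPM being 5722 to 7311, 2525 to 4289 and 4071 to 5311 in control, vehicle and hAAM livers. The summed CPM of 4 female-biased liver genes was far lower in every liver, at 1.84 to 2.58, 0.41 to 4.26 and 0.41 to 4.28 in the same order. Cyp7b1 and Slco1a1 are male-biased in mouse liver, and the part of the male-biased programme in their change was not tested.

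Markers of other cell types were also read. Of 8 monocyte and macrophage genes, 6 were called higher with vehicle and 6 with hAAMs (15.0% and 10.7% of all genes), and their summed CPM was 22.9 to 27.3 in control, 91.7 to 180 in vehicle and 90.1 to 178 in hAAM livers. Vehicle 4, the lowest injured liver in 5 of the 8 enzymes and transporters, had the highest summed CPM of cholangiocyte genes (324) and of neutrophil genes (57.5). It also had the highest sum of monocyte and macrophage genes (180, with hAAM 1 at 178). Vehicle 5, the lowest liver in Abcb11 and Cyp7b1, had the highest summed CPM of lymphocyte genes (57.7) and of red cell genes (2025). Without vehicle 5, 6 members were called lower with vehicle, Cyp8b1 being lost. Among 7 cholangiocyte genes, edgeR called none in either comparison with control (FDR of at least 0.0675), while 1 had an unadjusted p under 0.05 and DESeq2 called 1 in each. Of 6 neutrophil and 6 lymphocyte genes edgeR and DESeq2 called none, DESeq2 giving an FDR for 5 of the lymphocyte genes, and 1 neutrophil gene had an unadjusted edgeR p under 0.05 with vehicle. With vehicle, 1 of 7 Kupffer cell genes, 4 of 7 endothelial genes, 2 of 7 stellate cell genes and 4 of 5 red cell genes were called higher, and 1 red cell gene lower, against 15.0% and 14.8% of all genes. With hAAMs edgeR called 1, 2, 2 and 1 genes of these lists in either direction, and DESeq2 called 1, 5, 2 and 5. The background for the DESeq2 counts is larger. Among all genes DESeq2 called 7678 with vehicle and 5815 with hAAMs in either direction, where edgeR called 6719 and 4666 of 22581. Of 8 hepatocyte genes 1 was called higher and 1 lower by edgeR in both comparisons with control. The edgeR shares of all genes were 15.0% and 14.8% with vehicle and 10.7% and 9.96% with hAAMs. DESeq2 called 4 of the 8 with vehicle and 2 with hAAMs, the latter near the DESeq2 share of all genes. Of 4 female-biased genes tested, edgeR called 2 lower with vehicle (14.8% of all genes) and 0 with hAAMs. DESeq2 gave an FDR for 3 of them and called 3 with vehicle and 0 with hAAMs. The part of these cells in the values of the members was not tested.

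Ratios within a liver compare members without regard to scaling. The log2 ratio of uptake carrier to export pump, Slc10a1/Abcb11, was −1.19 ± 0.280 in control (SD, n = 3), 0.223 ± 0.640 in vehicle (n = 5) and −0.131 ± 0.309 in hAAM livers (n = 4). All injured livers were above all control livers. The difference was 1.41 with vehicle, with a two-sided exact permutation p of 0.0179, the smallest that 3 against 5 livers can give, and a Benjamini-Hochberg adjusted p of 0.214 over 15 ratio tests. With hAAMs it was 1.06, with an exact permutation p of 0.0286, again the smallest possible, and an adjusted p of 0.214. The hAAM and vehicle livers differed by −0.35 (exact permutation p 0.389), and by −0.077 without vehicle 5 or −0.23 without hAAM 1.

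None of the 15 ratio tests passed after adjustment. Cyp7b1/Cyp27a1, within the alternative route, differed from control by −0.93 with vehicle (exact permutation p 0.125) and by −0.37 with hAAMs (exact permutation p 0.486). Without control 3 these differences were −0.59 and −0.029, and the second was −0.67 without control 2 and −0.12 without hAAM 4. Cyp7a1/Cyp27a1, between the entry enzymes of both routes, was 1.05 higher in hAAM than in vehicle livers (exact permutation p 0.119). Nr0b2/Nr1h4 differed from control by 0.96 and 0.89 with vehicle and hAAMs (exact permutation p 0.179 and 0.143). For Cyp8b1/Cyp7a1 the difference with vehicle was −0.00475 (exact permutation p 1.0), and it was 0.085 without both near-identical libraries, −0.99 without control 2 and 0.58 without control 1.

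**Figure D4:**
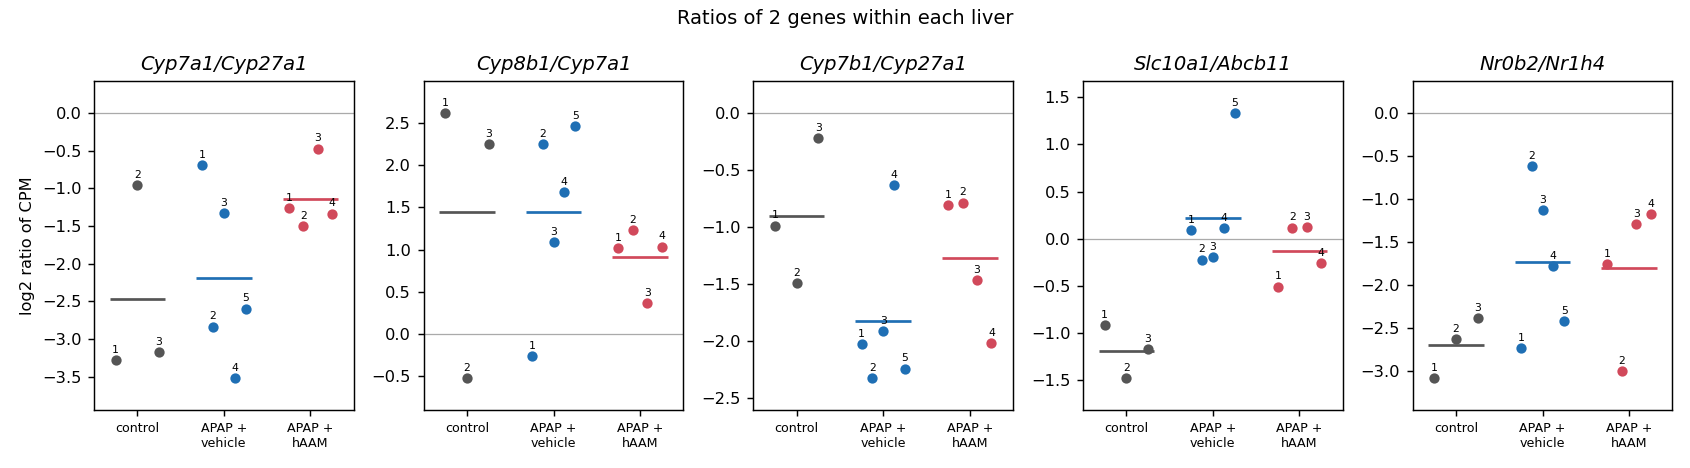
Log2 ratio of CPM of 2 genes within each liver, with replicate numbers and a bar at the group mean. The ratio Slc10a1/Abcb11 is above the control livers in all injured livers, and the other ratios overlap between groups.

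Further genes of the pathway were taken from lists of synthesis and conjugation, of transport and sulphation, and of regulation. In vehicle against control livers, 3 of 17 tested synthesis and conjugation genes were higher and 7 lower, 2 of 16 transport genes were higher and 5 lower, and 1 of 17 regulators was higher and 7 lower, while 15.0% of all genes were higher and 14.8% lower. With hAAMs the counts were 3 and 3, 3 and 4, and 1 and 5 in the same order, while 10.7% of all genes were higher and 9.96% lower. Counts such as 2 of 16 and 3 of 17 are near these shares. No gene of these lists was called between hAAM and vehicle livers by edgeR or DESeq2, and 1 gene of each list had an unadjusted edgeR p under 0.05. Hsd3b7 was not tested, and 99.2% of its exon bases are shared with other annotated genes. The median log2 fold changes with vehicle were −0.44, −0.21 and −0.12, against 0.01 over all genes.

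The largest falls with vehicle were those of Sult2a8, a bile acid sulphotransferase, and Cyp2c70, which makes the muricholic acids of rodents. Sult2a8 was at 220 to 426 CPM in control, 13.2 to 120 in vehicle and 47.7 to 182 in hAAM livers, a log2 fold change of −2.84 with vehicle (FDR 0.00563 by edgeR, SE 0.616). Cyp2c70 was at 644 to 844 CPM in control, 50.2 to 211 in vehicle and 209 to 316 in hAAM livers, and fell by 2.19 on the log2 scale (FDR 0.00115 by edgeR, SE 0.346). Both lay below the control range in every injured liver. With hAAMs Cyp2c70 fell by 1.51 (edgeR FDR 0.0149), while the difference of −1.69 in Sult2a8 did not pass the test (edgeR FDR 0.0833). Slc22a7, an organic anion transporter, fell by 1.76 (edgeR FDR 0.00322), and Slc10a2, the apical sodium-dependent carrier, by 1.18 (edgeR FDR 0.00427). Slc27a5, the ligase that activates bile acids for conjugation, fell by 1.15 (edgeR FDR 0.0101), and in hAAM 3 it was at 682 CPM, within the control range of 654 to 721 CPM.

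Among called genes with a mean log2 CPM of 0 or more, the largest rises with vehicle were those of the export pumps Abcb1a and Abcc4 and of the coactivator Ppargc1a. Abcb1a, a multidrug efflux pump, was at 2.61 to 2.93 CPM in control and 7.60 to 9.40 CPM in vehicle livers, a log2 fold change of 1.60 (FDR 2.62e-05 by edgeR, SE 0.129). Abcc4 (MRP4), which exports bile acids back to blood, rose by 1.18 with vehicle (edgeR FDR 0.00107) and by 1.22 with hAAMs (edgeR FDR 0.00192), from 4.31 to 4.77 CPM in control to 7.78 to 13.9 CPM in injured livers. Ppargc1a, a coactivator induced by fasting, rose by 1.19 with vehicle (edgeR FDR 0.0228) and was highest in hAAM 3 at 37.2 CPM. Cyp2a12, which rehydroxylates secondary bile acids, and Acox2, which shortens the side chain, rose by 0.55 and 0.46 (edgeR FDR 0.00115 and 0.0361). Below that level, Ch25h, which makes 25-hydroxycholesterol, was at 0.020 to 0.15 CPM (1 to 8 counts) in control and 0.34 to 1.23 CPM in vehicle livers, with a fitted log2 fold change of 3.45 (FDR 0.0209 by edgeR, SE 0.984). The uptake carrier Slco1a4 was at 9.88 to 25.1 CPM in control and 27.7 to 66.9 CPM in vehicle livers without overlap, a log2 difference of 1.30 that missed the threshold (edgeR FDR 0.0631). With hAAMs Slco1a4 rose by 1.75 (edgeR FDR 0.0315) and was highest in hAAM 3 at 122 CPM. Ch25h and Slco1a4 were chosen after their values were seen.

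Among the regulators, the factors that act on Cyp7a1 and Cyp8b1 were read in every comparison. Nr5a2 (LRH-1), whose motif letters were found in the windows of Cyp8b1 and Nr0b2, fell by 0.71 with vehicle (FDR 0.00319 by edgeR, SE 0.138) and by 0.62 with hAAMs (edgeR FDR 0.0128). Hnf4a fell by 0.38 with vehicle (FDR 0.0276 by edgeR, SE 0.114), and differed by −0.29 with hAAMs (edgeR FDR 0.102). Fgfr4 and its co-receptor Klb, which receive the gut signal that represses Cyp7a1, differed from control by 0.02 and 0.30 with vehicle (edgeR FDR 0.908 and 0.307). Slc51b, the basolateral exporter subunit induced by FXR in cholestasis, was at 0.06 to 0.49 CPM over all livers and did not pass the test (log2 −0.42, SE 0.622, edgeR FDR 0.649).

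**Figure D5:**
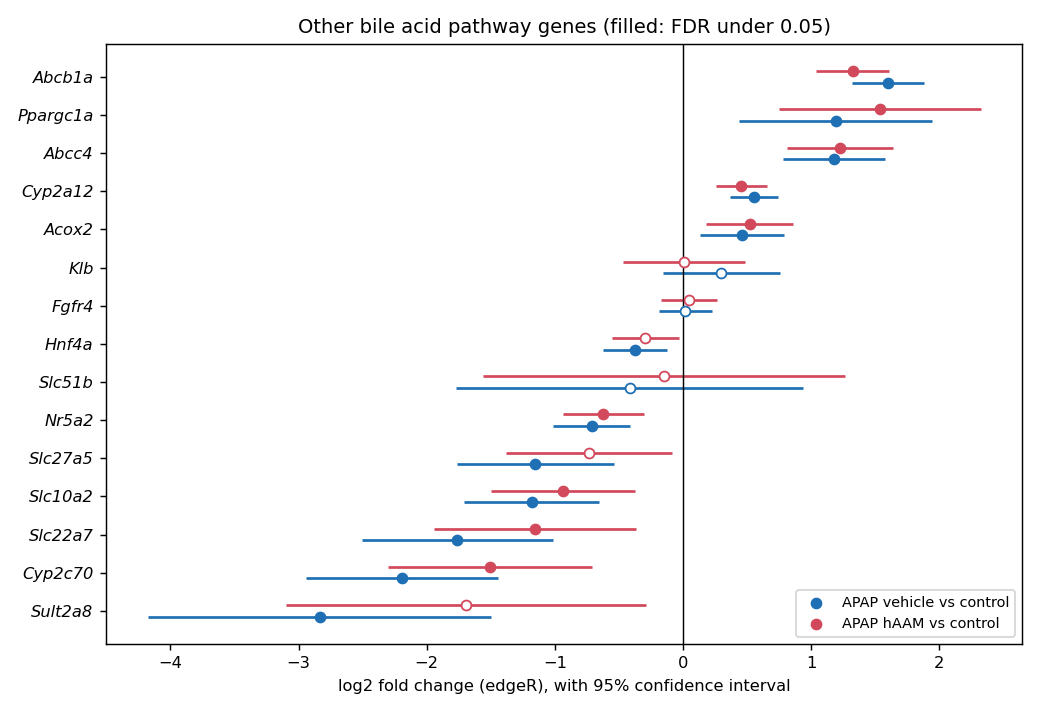
Log2 fold change from edgeR with 95% confidence intervals for further pathway genes, in vehicle and hAAM livers against control. Filled points passed an FDR of 0.05, and Sult2a8 (−2.84) and Abcb1a (1.60) mark the ends of the range with vehicle.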

How the data were processed

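Mouse livers were sequenced as paired-end, rRNA-depleted, directional libraries. Per the labels and the study's methods, the authors trimmed reads with Cutadapt 4.6, aligned them to GRCm38 with STAR 2.7.1a and used summarizeOverlaps to count reads for each Ensembl gene. The counting mode and strand setting were not given in the sources used here. The deposited values were raw counts that the authors had filtered on low expression. Symbols, coordinates and exon lengths came from GENCODE annotation of GRCm38, and promoter sequences from RefSeq (GRCm38.p6). Counts were tested with edgeR 4.0.16 (R 4.3.3), with TMM scaling, its expression filter by group, 1 quasi-likelihood fit over all 12 livers and Benjamini-Hochberg adjustment over 22581 genes. The fits were tested on simulated counts. Ratios within a liver used two-sided exact permutation tests. Total counts of 47391650 to 74056505 per liver left counting error small beside the spread between mice. DESeq2 1.42.0, other scalings, filters and thresholds, a replicate block and the omission of single livers served as alternatives. Pathway genes were named as the 5 largest rises and falls passing FDR 0.05 in vehicle against control and averaging 0 or more on the log2 CPM scale, plus Nr5a2, Hnf4a, Fgfr4, Klb, Slc51b and Abcc4. Marker lists covered hepatocytes and their zones, cholangiocytes, macrophages and other non-parenchymal and blood cells, clock genes and sex-biased genes. The 10 members and all lists were chosen with earlier results of these data known.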

Additional observations from a re-analysis of the deposited data

Results flagged for a closer look

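Within-group series of 4 or 5 livers were screened with Dixon's test for a liver far from the others, which chance flags in about 1 of 20 groups, and 2 of 30 series stood out. The log2 ratio Cyp7b1/Cyp27a1 of vehicle 4 was −0.63, while the other vehicle livers lay between −2.33 and −1.92. In that liver Cyp27a1 was the lowest of all livers at 55.3 CPM and Cyp7b1 was at 35.6 CPM. The log2 ratio Slc10a1/Abcb11 of vehicle 5 was 1.33, while the other vehicle livers lay between −0.22 and 0.11. Abcb11 was the lowest of all livers there at 91.0 CPM, and Slc10a1 was at 229 CPM, near the middle of its group. The part of the high lymphocyte and red cell genes of vehicle 5 in this value was not tested.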

How the results depend on the processing

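Over 21 alternatives, the log2 fold changes of the members kept their direction and their side of the threshold in 202 of 210 values for vehicle against control, 189 of 210 for hAAMs against control and 205 of 210 for hAAMs against vehicle. With hAAMs the number of members called lower, 5, became 2 at an FDR of 0.01 and 2 to 6 when single livers were left out. With vehicle it was 6 or 7 throughout. All genes called against control, 6719 and 4666, became 3183 and 1543 at that FDR, 4253 and 2959 with a replicate block, and 9747 and 7340 with library size alone; hAAM and control livers fitted alone gave 2729, and omission of single livers 2419 to 5456. Whether the replicate numbers pair the livers was not settled. Of 10 same-numbered pairs, 5 correlated above 0.1 (range −0.548 to 0.423), and the best match had the same number in 6 of 20 combinations. A replicate block left 6 and 5 members lower with vehicle and hAAMs, and cost Cyp8b1 its call with vehicle. Directions reversed in members and ratios whose differences did not pass the test. Library size alone turned Slc10a1 with hAAMs to 0.038. Leaving out single livers gave −0.53 to 0.019 for Slc10a1 and −1.06 to 0.82 for Cyp7a1 with hAAMs against control, and −0.36 to 0.17 for Nr0b2, −0.072 to 0.049 for Nr1h4 and −0.028 to 0.46 for Slc10a1 with hAAMs against vehicle. Ratio differences reversed likewise, from −0.13 to 1.03 for Cyp7a1/Cyp27a1 and −0.99 to 0.58 for Cyp8b1/Cyp7a1 with vehicle, −1.52 to 0.049 for Cyp8b1/Cyp7a1 with hAAMs, and −0.32 to 0.33 for Nr0b2/Nr1h4 between them. Without both near-identical libraries, Cyp8b1/Cyp7a1 with vehicle was 0.085. The cause of these shifts was not tested. With 3 to 5 livers a group, the spread between mice limits the precision more than depth does.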
